A study of Mus musculus with 12 samples.

Results

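Resting Kupffer cells are the macrophages of the liver sinusoids that were not dividing when the tissue was taken. They were chosen from single-cell RNA sequencing of whole neonatal mouse liver by their own transcripts: a barcode was counted as a resting Kupffer cell when it held 500 to 50000 unique molecular identifiers (UMIs, 1 per captured RNA molecule), at most 20% mitochondrial UMIs, at least 3 UMIs of the complement genes C1qa, C1qb and C1qc together, at least 1 UMI of the Kupffer cell receptors Clec4f and Vsig4, at most 1 UMI of the proliferation genes Top2a and Mki67, no UMI of the sinusoidal endothelial genes Stab2 and Clec4g, no UMI of the lymphocyte genes Cd79a and Cd3e, and under 10% adult globin UMIs (Hba-a1, Hba-a2, Hbb-bs and Hbb-bt). Of 207537 deposited barcodes, 202557 passed the limits on UMIs and mitochondrial share, and 10023 of these, or 4.95%, were resting Kupffer cells. The levels of these 15 rule genes therefore describe how the cells were chosen and are not results. The study asked how phlebotomy-induced anemia (PIA) changes the cells of the newborn liver. All pups were wild-type C57BL/6 mice sampled on postnatal day 11, with pups assigned at random to 6 control and 6 anemia mice. Anemia pups lost 20 µL of blood per gram of body weight from the facial vein on each of days 2, 4, 6, 8 and 10, and control pups were handled alike with a needle stick that drew no blood. Each liver was dissociated with enzymes, pelleted at low speed and loaded without sorting as 1 10x Genomics library, so that the mouse was the unit of replication throughout.

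Kupffer cells line the liver sinusoids, where they take up aged red cells, digest their heme and return the iron to the blood, and they clear bacteria, lipids and dead cells through scavenger receptors. In the perinatal liver, which still makes blood, macrophages also form the centre of erythroblast islands. When oxygen falls, prolyl hydroxylases stop marking hypoxia-inducible factors (HIF) for breakdown, and HIF then binds short ACGTG elements near genes for glucose uptake, glycolysis, mitophagy and vessel growth.

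The chosen cells carried Kupffer cell markers that the rule did not use. As counts scaled to a common total of all UMIs of these cells (CPM), the means over 12 mice were 2997 for Cd5l, 2761 for Marco, 1142 for Csf1r, 877 for Adgre1, 555 for Folr2, 535 for Timd4 and 90.7 for Cd163, against 15.2, 14.8, 14.1, 8.60, 3.11, 2.48 and 0.342 in 15653 B cells of the same livers. B cells, which should lack these genes, were barcodes with at least 2 UMIs of Cd79a, no C1q UMI, at most 1 UMI of Top2a and Mki67 and under 10% globin UMIs. Monocyte Ccr2 stood at 5.20 in resting Kupffer cells and 120 in the 2265 C1q cells that lacked Clec4f and Vsig4, where Lyz2 was 4770 against 906. As means over mice, those C1q cells had Cd5l at 572, Marco at 619, Csf1r at 758 and Adgre1 at 452. Folr2 was 143, Timd4 222 and Cd163 83.6 there, so that Cd163 was close to its level in resting Kupffer cells. At the thresholds, with UMIs pooled over mice, Cd5l was 1244 CPM in the 273 cells with a C1q sum of 3. It was 432 in the 242 cells with a sum of 2. It was 1706 in the 795 cells with a Clec4f and Vsig4 sum of 1 and 604 in the 2265 cells with none. For the same cells Marco was 2454 and 1214 and Timd4 357 and 178, while Adgre1 was nearly level at 611 and 562. Csf1r went the other way, at 639 and 807. The mice numbered anemia 2 and anemia 3 held 201 and 131 of the 795 cells and 1102 and 359 of the 2265. Of the 4333 Marco UMIs in the 795 cells, 2631 and 945 were theirs. These pooled values therefore lean on those libraries and need not hold in each mouse. At the globin limit, Cd5l was 2475 in the 44 cells with 5 to under 10% and 2916 in the 29 cells with 10 to 15%. The C1q minimum left 27079 of the 202557 barcodes, and the endothelial step, the largest after it, left 10889 of 19708. Each mouse gave 564 to 1174 resting Kupffer cells with 2165112 to 4605705 UMIs in all, from libraries of 46252146 to 74545930 UMIs.

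The libraries of the mice numbered anemia 2 and anemia 3 stood apart. The median Clec4f and Vsig4 sum per resting Kupffer cell was 3 in anemia 2 and 4 in anemia 3, against 9 to 12 in the other anemia mice and 11 to 14 in controls, so that 35.0% and 20.4% of their cells sat at the minimum of 1 UMI, against 3.70 to 6.22% in controls. The summed level of 10 monocyte markers in their resting Kupffer cells was 1875 and 959 CPM, against 426 to 508 in the other anemia mice and 261 to 578 in controls. Results are given for all 12 mice, and the main ones also without these 2. The comparison without them was added after their values were seen. Libraries shared 56 to 122 barcodes per pair, and 493 resting Kupffer cells carried such a barcode. Y-linked RNA was present in 2 of 6 control and 4 of 6 anemia mice, so the sexes were not balanced between the groups, and calls lost with Y-linked expression as a covariate are named beside the genes.

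Resting Kupffer cells made up a smaller share of the kept barcodes in anemia mice when all barcodes were counted. Their share of all kept barcodes was 6.23% ± 0.928 (SD, n = 6) in control mice and 3.83% ± 0.652 (SD, n = 6) in anemia mice. The control mice stood at 6.92, 5.46, 4.99, 6.85, 7.30 and 5.84%, and the anemia mice at 4.80, 3.25, 3.06, 3.95, 4.29 and 3.66%, so that all 6 anemia mice lay below every control. The exact 95% binomial interval, which covers counting error only, was 6.90 to 7.71% in the highest control and 2.83 to 3.30% in the lowest anemia mouse. The difference of -2.39 percentage points passed the exact two-sided Mann-Whitney test (p = 0.00217, the smallest that 6 against 6 allows, and 0.0130 after adjustment over 6 measures). Without anemia 2 and anemia 3 it was -2.05 points and no longer passed after adjustment (exact Mann-Whitney p = 0.00952, the smallest that 6 against 4 allows, adjusted p = 0.0571). With kept barcodes of at least 1000 UMIs thinned to that depth and the rule applied again, it was -4.21 points (adjusted p = 0.0130, exact test). Both the cells and the denominator then differed. Control 1 had 1375 of 12890 barcodes against 1054 of 15229 before, and anemia 2 had 442 of 15537 against 574 of 17676.

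The denominator of all kept barcodes held erythroid barcodes. Among barcodes under the globin limit the share was 6.76% ± 0.975 (SD, n = 6) against 5.08% ± 1.09 (SD, n = 6), with overlapping groups, and the difference of -1.68 points did not pass after adjustment (exact Mann-Whitney p = 0.0411, adjusted p = 0.0617). Without anemia 2 and anemia 3 it was -1.06 points (adjusted p = 0.257, exact test). As a share of all C1q cells, resting Kupffer cells fell from 90.0% ± 2.64 (SD, n = 6) to 72.0% ± 22.3 (SD, n = 6; exact Mann-Whitney p = 0.0152, adjusted p = 0.0303). The lowest values were those of anemia 2 at 31.4% and anemia 3 at 62.1%, while the other anemia mice stood at 76.9 to 89.4% and the controls at 85.9 to 92.9%. It was -9.80 points without anemia 2, -16.0 points without anemia 3 (adjusted p = 0.0606 each, exact test) and -5.30 points without both (adjusted p = 0.133, exact test). It also missed the threshold, at the same adjusted p of 0.0606, without control 1 (-17.5 points), control 4 (-17.8), control 5 (-18.0), control 6 (-17.3) or anemia 4 (-20.5). Because Clec4f and Vsig4 levels were themselves lower in anemia 2 and anemia 3, fewer Kupffer cells and less RNA of the rule genes per cell cannot be told apart there.

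**Figure D1:**
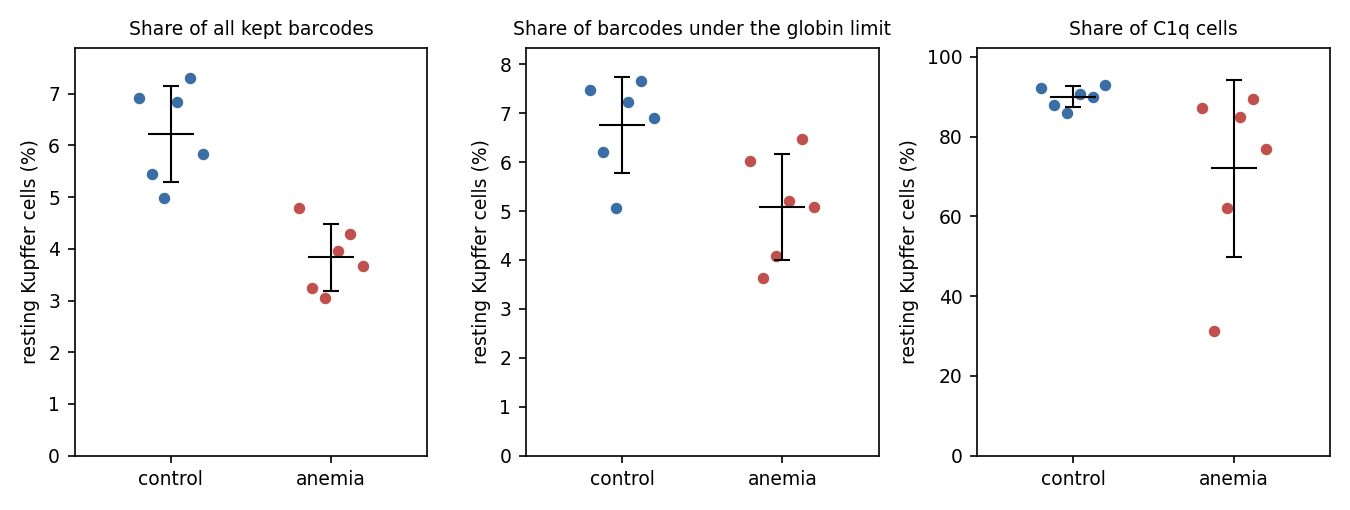
Resting Kupffer cells as a percentage of all kept barcodes, of kept barcodes under the globin limit and of C1q cells, with 1 point per mouse and the mean ± SD of 6 mice per group. In the first panel the 6 anemia mice, at 3.06 to 4.80%, all lie below the 6 controls at 4.99 to 7.30%; in the third panel anemia 2 at 31.4% and anemia 3 at 62.1% lie apart.

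The RNA content per cell did not pass a test. The median UMI count per resting Kupffer cell was 3434 ± 735 (SD, n = 6) in controls and 3403 ± 995 (SD, n = 6) in anemia (exact Mann-Whitney p = 0.818). The difference was -31.8 UMIs over all mice and -399.9 UMIs without anemia 2 and anemia 3 (p = 0.352, exact test). Thinned to 1000 UMIs per cell, which kept 4467 control and 3034 anemia cells, the median number of genes detected was 682 ± 4.86 (SD, n = 6) in controls and 669 ± 8.41 (SD, n = 6) in anemia, lower in 5 of 6 anemia mice than in every control (adjusted p = 0.0195, exact Mann-Whitney test). Without anemia 2 and anemia 3 the difference was -8.83 genes (adjusted p = 0.0857, exact test), and without anemia 4 it was -14.3 genes (adjusted p = 0.0519, exact test).

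Gene levels were compared on UMIs summed per mouse over its resting Kupffer cells. Levels below are CPM of the tested genes with edgeR's normalization, fold changes are anemia against control, and adjusted p-values are from edgeR's quasi-likelihood test with Benjamini-Hochberg adjustment over all 13024 genes tested. At an unadjusted edgeR p under 0.05 there were 2274 of these genes. After adjustment 164 genes, or 1.26%, passed a p of 0.05, of which 93 (0.714%) rose and 71 (0.545%) fell. The number of calls does not give the share of genes that changed. DESeq2 called more and split them the other way, with 251 higher and 309 lower. The count was lower with any 1 control left out. It was 37 without control 1, 87 without control 2, 57 without control 3, 47 without control 4, 81 without control 5, 56 without control 6 and 85 without anemia 3, and it was 247 without anemia 2 and anemia 3 together. With Y-linked expression as a covariate 112 genes were called, among them 105 of the 164. In the resting Kupffer cells with the lower share of hepatocyte transcripts 96 were called (81 of 157 kept), and in cells thinned to 1000 UMIs 59 (46 of 142 kept). Of 46 called genes named below, 13 kept their call in every alternative that tested them: Vegfa, Bnip3, Slc2a1, Slc16a3, Pgk1, Pgam1, Pfkl, Mif, Ankrd37, Ccl9 and Fabp4 in all 26, Egln3 in 25 and Mt2 in 24.

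The clearest group was hypoxia and glycolysis. Of 30 listed genes 29 were tested, and 18 of these rose and none fell, against 0.714% of all genes called higher and 0.545% called lower. All 29 had a positive log2 fold change, against 54.3% of all genes, with a median of 0.84 against 0.03 over all genes tested. In 19 of the 29 every anemia mouse lay above every control, against 1.14% of all genes. The list's count stayed between 12 and 18 with any 1 mouse left out and was 20, with a median of 0.65, without anemia 2 and anemia 3.

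The HIF target that moved most was Vegfa, the growth factor for blood vessels (chr17:46016993-46032369, minus strand). Its level was 4.85, 7.38 and 10.4 CPM (lowest, median and highest mouse, the order used throughout) in controls and 32.5, 51.0 and 63.0 CPM in anemia mice. Every anemia mouse lay well above every control. The fold change was 6.63 (log2 2.73 ± 0.21 SE, n = 6 per group, adjusted p = 1.6e-05), and Vegfa was called in all 26 alternative analyses.

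Feedback regulators of the oxygen sensor rose as well. Egln3, a prolyl hydroxylase that marks HIF for breakdown (chr12:54178981-54203860, minus strand), was close to the detection limit in controls at 1.25, 3.29 and 9.08 CPM and reached 9.47, 22.8 and 32.1 CPM in anemia mice, again without overlap (log2 2.54 ± 0.40 SE, adjusted p = 0.0103). Its relative Egln1 rose less (log2 0.66 ± 0.13 SE, adjusted p = 0.0225), and its call was lost without control 1, 2, 3, 4 or 5 (adjusted p up to 0.0720, without control 1, log2 0.67), in the cells with fewer hepatocyte transcripts (0.0656) and after thinning (0.318). Hif1a itself, which is regulated mainly at the protein level, was 76.0 to 108 CPM in controls and 85.8 to 146 CPM in anemia mice (log2 0.23, adjusted p = 0.347). Ankrd37, a small HIF target, rose (log2 0.84 ± 0.12 SE, adjusted p = 0.00755). Ddit4, an inhibitor of mTORC1 induced by hypoxia and glucocorticoids (chr10:59949669-59951834, minus strand), stood at 4.66, 7.41 and 10.6 CPM in controls and 6.76, 27.4 and 69.9 CPM in anemia mice. Its groups overlapped in 1 anemia mouse (log2 2.09 ± 0.43 SE, adjusted p = 0.0313), and it was called in 4 of 12 fits with 1 mouse left out (log2 1.73 to 2.31, adjusted p up to 0.0872, without control 1). It was not called with the Y-linked covariate (log2 1.70, adjusted p = 0.103) or after thinning (0.0820).

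Genes that bring glucose in and send lactate out rose together. Slc2a1, the glucose transporter GLUT1 (chr4:119108711-119137983, plus strand), was 22.5, 29.8 and 30.9 CPM in controls and 50.6, 62.6 and 85.7 CPM in anemia mice. The groups did not overlap, and the fold change was 2.27 (log2 1.18 ± 0.13 SE, adjusted p = 0.00041). Slc16a3, the lactate exporter MCT4, was 21.2, 26.5 and 28.7 CPM in controls and 58.0, 69.1 and 148 CPM in anemia mice (log2 1.67 ± 0.21 SE, adjusted p = 0.00247).

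Of the glycolytic enzymes themselves, most steps were represented. Pgk1, which makes ATP in the payoff phase, went from 183, 187 and 217 CPM to 350, 465 and 1098 CPM (log2 1.59 ± 0.24 SE, adjusted p = 0.00867). Pgam1, the next enzyme, went from 182, 193 and 202 CPM to 328, 376 and 877 CPM (log2 1.28 ± 0.21 SE, adjusted p = 0.0119). In both genes the 6 anemia mice lay above the 6 controls. Pkm, Tpi1, Pfkl, Eno1, Ldha and Gpi1 also rose, with log2 fold changes of 1.07, 1.01, 0.87, 0.81, 0.75 and 0.62 and adjusted p-values of 0.0182, 0.0161, 0.0141, 0.0310, 0.0240 and 0.0192. The call was lost for Eno1 in 7 of the 12 fits with 1 mouse left out (adjusted p up to 0.0915, without control 1), for Ldha in 5 (0.0752, without control 1), for Pkm without control 1 (0.0531) and control 4, for Tpi1 without control 1 (0.0531) and for Gpi1 without control 4 (0.0509). Ldha also missed the threshold in the cells with fewer hepatocyte transcripts (0.0532). Without anemia 2 and anemia 3 the log2 fold change was 0.50 for Eno1 (adjusted p = 0.00571) and 0.71 for Pkm (adjusted p = 0.000416). Gapdh was 1782, 1875 and 2058 CPM in controls and 2122, 2513 and 5903 CPM in anemia mice and did not pass (log2 0.86 ± 0.24 SE, adjusted p = 0.0932), although the groups did not overlap. The hexokinases Hk1 and Hk2 (log2 0.38 and 0.11, adjusted p = 0.0898 and 0.687) and the bifunctional enzymes Pfkfb3 and Pfkfb4 (log2 0.22 and 0.14, adjusted p = 0.391 and 0.646) did not pass either. Several of these enzymes have processed pseudogenes, with which the counting may have had to share reads.

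Genes that act on mitochondria were among those that rose. Bnip3, a receptor that marks mitochondria for autophagy (chr7:138890836-138909519, minus strand), was 25.1, 34.0 and 39.8 CPM in controls and 86.5, 113 and 178 CPM in anemia mice. There was a wide gap between the groups (fold change 3.62, log2 1.86 ± 0.17 SE, adjusted p = 7.7e-05). Pdk1, the kinase that keeps pyruvate out of the mitochondria, rose as well (log2 0.81 ± 0.12 SE, adjusted p = 0.00740, but 0.101 after thinning). Bnip3l, the receptor that clears mitochondria from reticulocytes, did not pass, with 115 to 135 CPM in controls and 129 to 164 CPM in anemia mice (log2 0.22, adjusted p = 0.184). Mif, a cytokine gene that hypoxia induces, was 293, 327 and 365 CPM in controls and 536, 702 and 1526 CPM in anemia mice (log2 1.37 ± 0.22 SE, adjusted p = 0.0103).

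**Figure D2:**
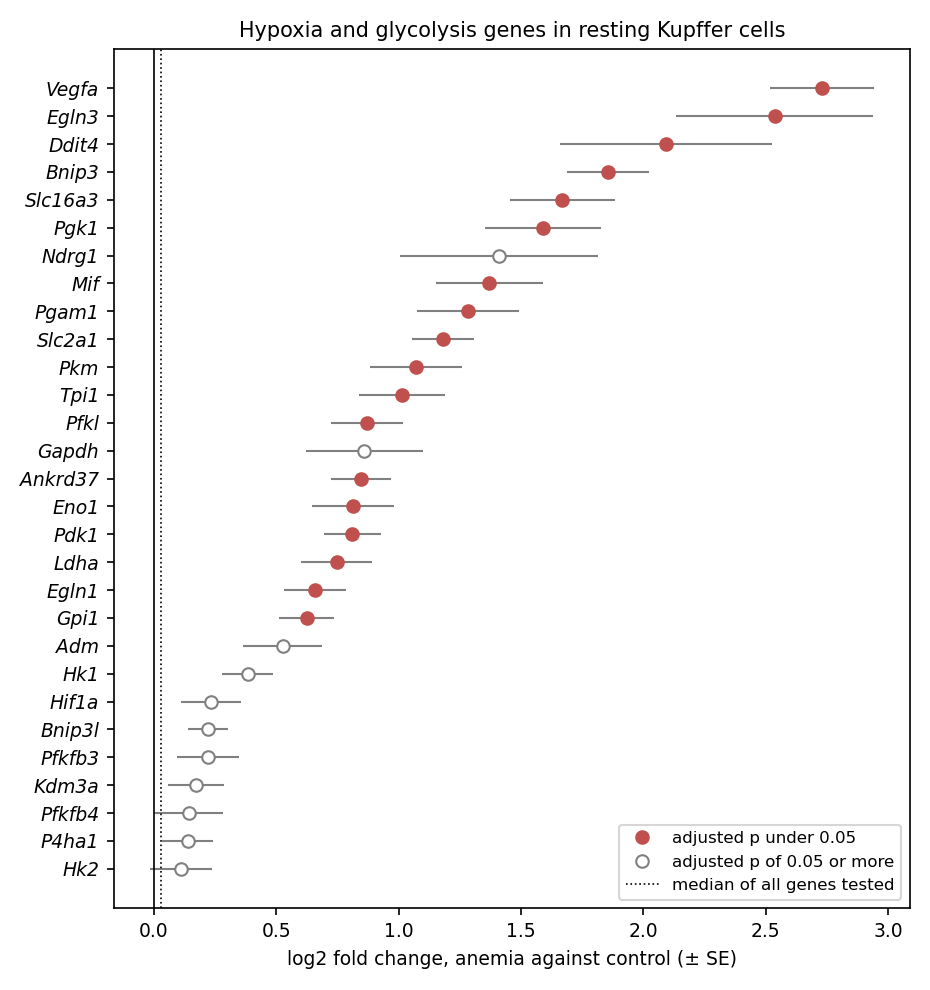
Log2 fold change, anemia against control, of the 29 tested hypoxia and glycolysis genes in resting Kupffer cells, with bars of ± 1 SE from 6 mice per group; filled points passed an adjusted p of 0.05 and the dotted line is the median of all genes tested, 0.03. All 29 points lie above 0, from Hk2 at 0.11 to Vegfa at 2.73, and 18 are filled.

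Short stretches upstream of 6 of these genes are shown because they carry the letters that HIF is known to bind. The sequences are RefSeq promoter windows of GRCm38.p6, 5′ to 3′ on the gene's own strand, each with up to 30 bases on either side of the match, and the capitals mark ACGTG or its reverse complement CACGT. The stretch of Bnip3 is chr7:138909579-138909644 (minus strand), of Pgk1 chrX:106186920-106187003 (plus), of Egln3 chr12:54204069-54204124 (minus), of Pgam1 chr19:41911727-41911791 (plus), of Ldha chr7:46845629-46845803 (plus) and of Ddit4 chr10:59951923-59951987 (minus).
Bnip3: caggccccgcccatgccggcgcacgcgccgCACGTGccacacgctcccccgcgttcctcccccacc
Pgk1: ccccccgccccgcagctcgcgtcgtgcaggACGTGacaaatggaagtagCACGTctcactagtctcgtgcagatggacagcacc
Egln3: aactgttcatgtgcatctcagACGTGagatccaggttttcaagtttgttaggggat
Pgam1: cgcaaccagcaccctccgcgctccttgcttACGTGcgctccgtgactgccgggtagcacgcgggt
Ldha: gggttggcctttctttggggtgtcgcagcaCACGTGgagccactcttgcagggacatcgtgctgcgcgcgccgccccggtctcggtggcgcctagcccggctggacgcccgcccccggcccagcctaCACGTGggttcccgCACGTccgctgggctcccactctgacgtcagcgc
Ddit4: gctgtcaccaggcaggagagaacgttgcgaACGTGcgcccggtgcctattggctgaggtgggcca

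Bnip3 and Ldha hold the palindrome CACGTG, in which the forward and reverse letters overlap, and Ldha holds 5 matches on either strand. Within the 250 bases upstream of a RefSeq start, ACGTG on either strand was present for 12 of the 18 genes of the list that rose (66.7%) and for 4 of the 9 with a window that did not pass (44.4%). It was present for 15 of 56 other genes that rose (26.8%), 16 of 46 genes that fell (34.8%) and 2513 of 10086 tested genes with a window (24.9%), and in 16.6% of all 32851 windows of this length. These counts take any window of a gene. The 6 stretches shown came from 10 genes with a match in the outermost window, after 4 with an overlapping exon were left out. Because the list was made of known hypoxia and glycolysis genes, its share of matches does not test whether HIF acted in these cells. A match describes the letters and not a bound site, and binding was not measured here.

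The same genes were then compared with B cells of the same livers, as defined above. B cells were shallower, with a median of 1346 to 1790 UMIs per cell and mouse against 2126 to 5001 in resting Kupffer cells. A test of the difference itself, with the mouse as a block, found a larger effect of anemia in resting Kupffer cells for 11 of the 29 hypoxia and glycolysis genes and a smaller one for none, against 0.799% of all genes in either direction. These were Vegfa, Egln3, Ddit4, Bnip3, Pgk1, Pgam1, Mif, Slc2a1, Pkm, Tpi1 and Ldha. The difference was positive for 25 of the 29, with a median of 0.48 on the log2 scale. Ldha passed narrowly (edgeR adjusted p = 0.0472). Over all genes the count of such differences fell from 104 to between 19 and 56 with any 1 control left out. Results of those fits are not given gene by gene for these 11. In B cells, on a separate CPM scale, Vegfa averaged 20.3 CPM in controls and 17.1 CPM in anemia mice, a difference between the effects of 2.98 (adjusted p = 7.2e-06). Bnip3 went from 29.9 to 51.0 CPM in B cells (difference 1.07, adjusted p = 0.0267), and Slc2a1 from 21.8 to 27.1 CPM (difference 0.85, adjusted p = 0.0496). For Slc16a3, which went from 6.02 to 15.2 CPM in B cells, the difference did not pass (0.48, adjusted p = 0.584). Vegfa went from 12.6 to 23.5 CPM in cycling Kupffer cells and from 23.5 to 54.6 CPM in C1q cells without Clec4f and Vsig4. In these sets Bnip3 went from 17.0 to 74.0 and 47.6 to 98.3 CPM, and Egln3 from 4.26 to 17.4 and 7.58 to 23.5 CPM. No gene of the list passed the test of the difference against these macrophage sets, which are described below. For Vegfa, Bnip3 and Egln3 the differences were 1.63, -0.34 and 0.88 against cycling Kupffer cells. Against C1q cells without Clec4f and Vsig4 they were 1.44, 0.82 and 0.74 (edgeR adjusted p = 0.265, 0.321 and 0.786). These sets held 12 to 153 and 46 to 1102 cells per mouse, against 564 to 1174 resting Kupffer cells. A difference that did not pass there does not show that the effects were equal.

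**Figure D3:**
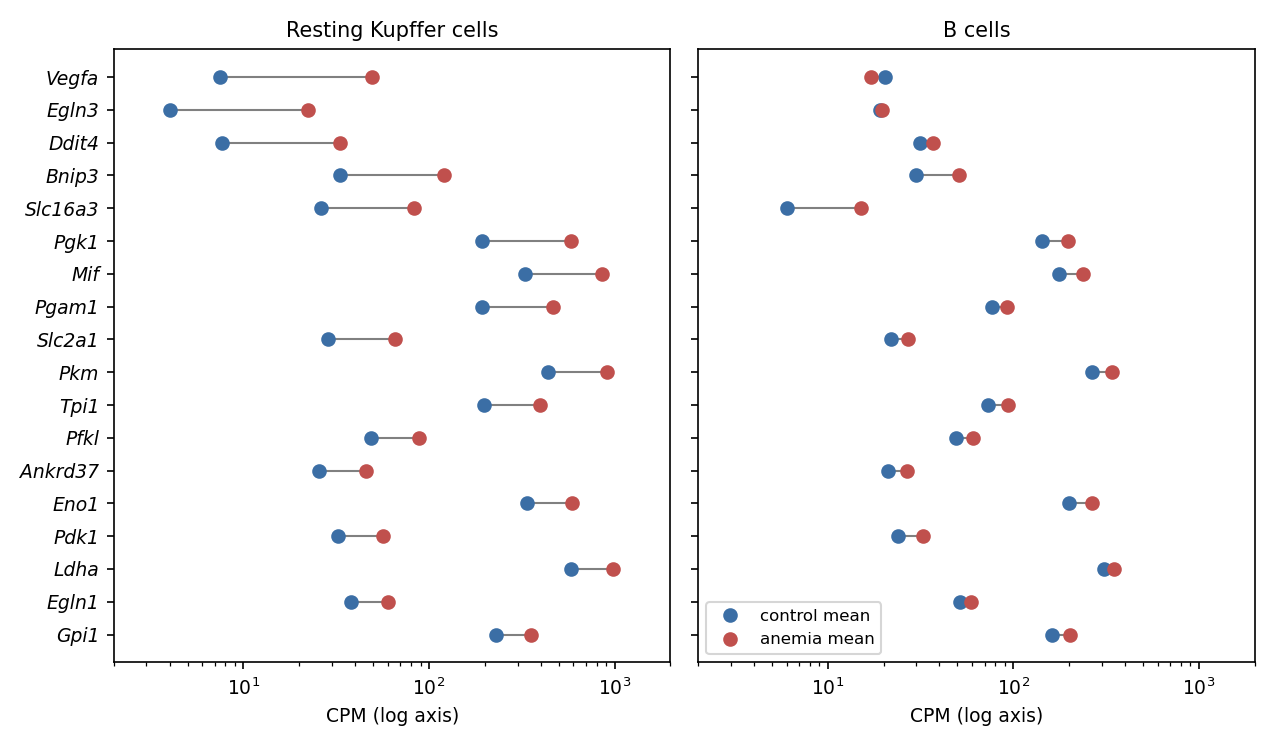
Mean CPM over 6 control and 6 anemia mice of the 18 hypoxia and glycolysis genes that rose in resting Kupffer cells, in resting Kupffer cells (left) and B cells (right), on a log axis. The lines that join the group means are longer on the left for most genes, as for Vegfa, which went from 7.45 to 49.5 CPM on the left and from 20.3 to 17.1 CPM on the right.

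Of 20 Kupffer cell identity genes beyond the rule 1 rose and none fell, against 0.714% of all genes called higher and 0.545% called lower, with a median log2 fold change of -0.04 against 0.03 over all genes. The gene that rose was Cd207, the lectin langerin (chr6:83671215-83677857, minus strand), at 6.18, 8.87 and 12.6 CPM in controls and 17.7, 20.3 and 39.1 CPM in anemia mice. The groups did not overlap (fold change 2.69, log2 1.43 ± 0.25 SE, adjusted p = 0.0161). In cells thinned to 1000 UMIs its call was lost (log2 1.35, adjusted p = 0.115), and then none of the 20 was called.

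Cd5l, a secreted macrophage scavenger protein that serves as a Kupffer cell marker, was 3005, 3522 and 4774 CPM in controls and 2398, 3523 and 4317 CPM in anemia mice (log2 -0.09 ± 0.16 SE, adjusted p = 0.819). Timd4, a receptor for phosphatidylserine on dying cells, was 549, 609 and 784 CPM against 535, 594 and 914 CPM (log2 0.05 ± 0.14 SE, adjusted p = 0.893). Csf1r, the receptor for the macrophage growth factor CSF1, was 1214, 1374 and 1586 CPM against 1106, 1295 and 1428 CPM (log2 -0.12 ± 0.10 SE, adjusted p = 0.564). The groups overlapped widely in all 3 genes. For Adgre1, which encodes F4/80, the log2 fold change was 0.21 ± 0.20 SE (adjusted p = 0.618).

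Other identity genes split by library. Marco, a scavenger receptor for bacteria (chr1:120474538-120505024, minus strand), was 8134 CPM in anemia 2 and 7307 CPM in anemia 3, whereas the other anemia mice stood at 2236 to 2815 CPM and the controls at 2037 to 3208 CPM. Over all mice its log2 fold change was 0.73 ± 0.33 SE (adjusted p = 0.274), and without these 2 mice it was -0.06 (adjusted p = 0.866). Hpgd, which inactivates prostaglandins (chr8:56294585-56321043, plus strand), was 177 CPM in anemia 2 and 782 CPM in anemia 3, with the other anemia mice at 1202 to 1506 CPM and the controls at 1513 to 1855 CPM. All 6 anemia mice lay below every control, as in 1.5% of all genes, but the test did not pass with all mice (log2 -0.66 ± 0.34 SE, adjusted p = 0.338) or without the 2 (log2 -0.31, adjusted p = 0.0831). Mrc1, the mannose receptor, was likewise lowest in anemia 2 at 360 CPM and anemia 3 at 666 CPM, against 1037 to 1242 CPM in the other anemia mice and 1014 to 1560 CPM in controls (log2 -0.52 ± 0.24 SE, adjusted p = 0.283).

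Counted per cell at 1000 UMIs, the share of resting Kupffer cells with an Hpgd UMI was 70.5% ± 3.71 (SD, n = 6) in controls and 49.3% ± 19.3 (SD, n = 6) in anemia, with 2.03 and 1.13% of B cells at the same depth, and 89.5 and 73.8% without thinning. The share with an Mrc1 UMI was 60.3% ± 4.97 (SD, n = 6) and 45.9% ± 16.9 (SD, n = 6), against 1.94 and 1.32% of B cells, and 72.7 and 62.5% without thinning. Both shares were lowest in anemia 2, at 13.1 and 16.8%, the library in which monocyte markers were highest. Their part in these values was not tested. For Timd4 the shares were 39.9% ± 1.78 (SD, n = 6) and 39.4% ± 4.25 (SD, n = 6), against 0.311 and 0.201% of B cells. Without thinning the Timd4 shares were 68.1 and 67.1%.

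**Figure D4:**
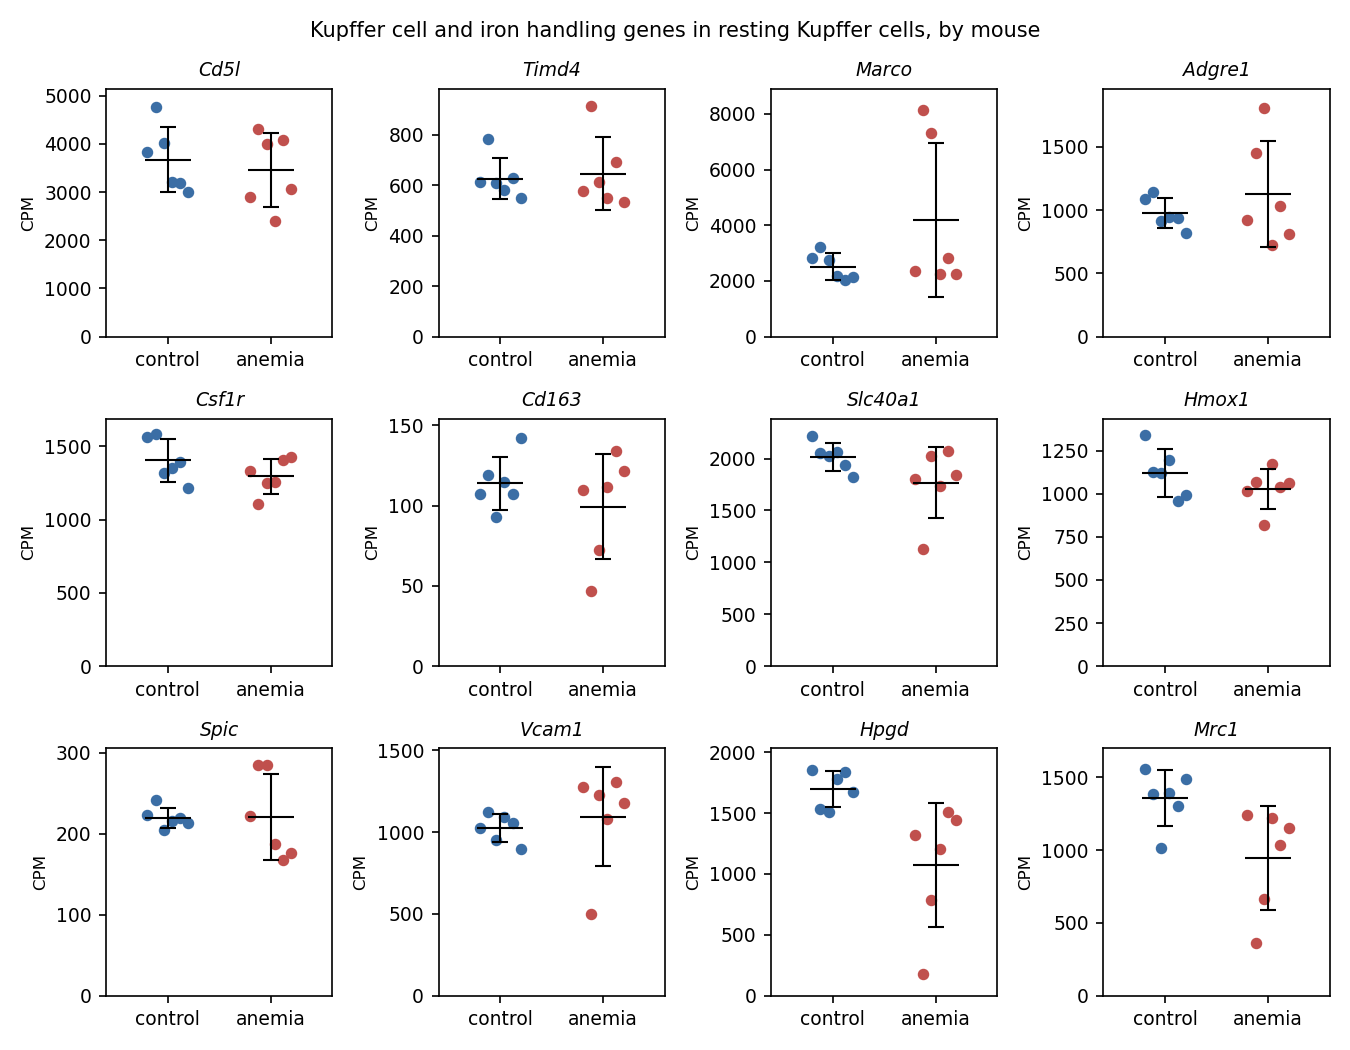
CPM in resting Kupffer cells of 12 Kupffer cell and iron handling genes, with 1 point per mouse and the mean ± SD of 6 mice per group; none passed an adjusted p of 0.05. Marco shows 2 anemia mice, anemia 2 and anemia 3, at 8134 and 7307 CPM above all others, and Hpgd shows all 6 anemia mice below the controls.

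Of 21 scavenger and dead-cell uptake genes 1 rose and 1 fell (median log2 0.05), and of 27 tested lipid and sterol genes 2 rose and 1 fell (median -0.08), against 0.714% of all genes called higher and 0.545% called lower. Cd36 is in both lists. Cd36, the receptor for oxidized lipids and fatty acids (chr5:17781690-17888801, minus strand), was 260, 325 and 505 CPM in controls and 83.6, 166 and 250 CPM in anemia mice. All anemia mice lay below the controls, as in 1.5% of all genes, with a fold change of 0.503 (log2 -0.99 ± 0.22 SE, adjusted p = 0.0450), but its call held in only 3 of the 12 fits with 1 mouse left out (log2 -1.12 to -0.84, adjusted p up to 0.115, without control 1), and it was lost without TMM factors (0.0533) and in the cells with fewer hepatocyte transcripts (0.0584). Msr1, the class A scavenger receptor, was 255, 319 and 374 CPM in controls and 386, 447 and 580 CPM in anemia mice (log2 0.53 ± 0.12 SE, adjusted p = 0.0451). Its groups did not overlap either, and its call held in 3 of the 12 fits (adjusted p up to 0.121, without control 1, log2 0.51). It was lost with the Y-linked covariate (0.0590), in the cells with fewer hepatocyte transcripts (0.0590), after thinning (0.166) and in 4 other alternatives (0.0500 to 0.0664).

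Fabp4, a fatty acid binding protein found in endothelium and macrophages (chr3:10204088-10208576, minus strand), was 86.2, 101 and 104 CPM in controls and 219, 280 and 348 CPM in anemia mice. It rose 2.94-fold without overlap (log2 1.55 ± 0.11 SE, adjusted p = 1.6e-05). Its level in resting Kupffer cells was 0.0810 of that in all other barcodes, and it also went from 222 to 408 CPM in B cells, a smaller effect by 0.69 on the log2 scale (adjusted p = 0.0122). Scd2, a stearoyl-CoA desaturase, was 63.0, 71.0 and 75.9 CPM in controls and 94.0, 132 and 238 CPM in anemia mice (log2 1.13 ± 0.23 SE, adjusted p = 0.0290). The highest values were those of anemia 2 and anemia 3, at 232 and 238 CPM against 94.0 to 161 CPM in the other anemia mice, and without these 2 the log2 fold change was 0.69 (adjusted p = 0.0214). Scd2 differed in effect from B cells, where it stood at 36.1 and 37.2 CPM (difference 0.99, adjusted p = 0.0431), and was called in 4 of the 12 fits with 1 mouse left out (adjusted p up to 0.0752, without control 1, log2 1.14). With the Y-linked covariate it was not called (0.0524).

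No gene of heme and iron handling passed the test in edgeR, DESeq2 or voom. All 21 listed genes were tested, and none rose or fell, against 1.26% of all genes called. An unadjusted edgeR p under 0.05 was found for 5 of the 21, against 2274 of all 13024 genes. Of the 21, 8 had a positive fold change, and the median was -0.08. Hmox1, the heme oxygenase that opens the heme ring, was 959, 1124 and 1342 CPM in controls and 817, 1050 and 1172 CPM in anemia mice (log2 -0.13 ± 0.11 SE, adjusted p = 0.576). Slc40a1, the iron exporter ferroportin, was 1817, 2037 and 2217 CPM in controls and 1128, 1824 and 2077 CPM in anemia mice, the lowest in anemia 2 (log2 -0.19 ± 0.13 SE, adjusted p = 0.476). The groups overlapped in both.

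Spic, the transcription factor of macrophages that recycle iron, was 205, 218 and 242 CPM against 168, 205 and 285 CPM (log2 0.01 ± 0.14 SE, adjusted p = 0.990), and Cd163, the receptor for hemoglobin bound to haptoglobin, was 92.7, 111 and 142 CPM against 47.0, 111 and 134 CPM (log2 -0.20 ± 0.20 SE, adjusted p = 0.639). For Tfrc, the transferrin receptor, it was 0.0007 ± 0.0957 SE (adjusted p = 0.999), and for the ferritin chains Fth1 and Ftl1 0.65 and -0.13 (adjusted p = 0.353 and 0.550). None of the 6 erythroblast island genes passed in edgeR, DESeq2 or voom, or had an unadjusted edgeR p under 0.05. Vcam1, which holds erythroblasts to the macrophage, was 894, 1040 and 1122 CPM against 497, 1202 and 1306 CPM, with the low value again from anemia 2 (log2 0.10 ± 0.18 SE, adjusted p = 0.825). None of 27 lysosome genes passed in edgeR (median -0.07) or voom. An unadjusted edgeR p under 0.05 was found for 5 of the 27, against 2274 of all 13024 genes. DESeq2 called 3 of the lysosome genes lower. In edgeR 1 of them was called lower with the stricter marker rule, the stricter globin limit, without anemia 2 and without anemia 4 each. Of these genes Hexa, Lipa, Atp6v1a and Mcoln1, named after their values were seen, were lower in all 6 anemia mice than in every control, as 1.5% of all genes were. Mcoln1, a lysosomal calcium channel, came closest (log2 -0.78 ± 0.18 SE, adjusted p = 0.0537).

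The lists of immune genes stand beside 1.26% of all genes called, a share that gives most short lists no call. Their counts at an unadjusted edgeR p under 0.05 stand beside 2274 of all 13024 genes. Of 25 interferon response genes none passed (median 0.14), and of 16 antigen presentation genes none passed (median -0.18), in edgeR, DESeq2 or voom. At an unadjusted edgeR p under 0.05 there were 1 and 0. Of 11 complement genes beyond C1q none passed in edgeR (median 0.32), where 4 had an unadjusted p under 0.05, while DESeq2 called 1 higher and 1 lower and voom 1 higher. Of 22 tested chemokine and cytokine genes 2 rose and none fell in edgeR, with a median of -0.04. DESeq2 called 4 of the 22 higher and voom 2, and 10 had an unadjusted edgeR p under 0.05.

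The 2 called by edgeR were neighbouring chemokines of the CC family that macrophages make. Ccl9 (chr11:83572919-83578636, minus strand) was 7.66, 9.94 and 15.8 CPM in controls and 24.7, 31.5 and 44.6 CPM in anemia mice. It rose 3.27-fold without overlap (log2 1.71 ± 0.18 SE, adjusted p = 0.00041), more than in B cells (5.19 to 7.08 CPM, difference 1.25, adjusted p = 0.0324). In C1q cells without Clec4f and Vsig4 it was higher and went from 77.5 to 176 CPM (difference 0.67, adjusted p = 0.497). In cycling Kupffer cells it went from 14.9 to 24.4 CPM, and the difference did not pass. Its level in resting Kupffer cells was 1.09 times that in all other barcodes. Ccl6 was 424, 454 and 546 CPM in controls and 559, 624 and 711 CPM in anemia mice, also without overlap (log2 0.42 ± 0.10 SE, adjusted p = 0.0477), and its call held in 1 of the 12 fits with 1 mouse left out (adjusted p up to 0.135, without control 1, log2 0.40). It was also lost in 9 of the 14 other alternatives (adjusted p from 0.0531 to 0.126), the Y-linked covariate among them. Tnf, Il1b and Il6 had log2 fold changes of -0.50, -0.35 and -0.28 (adjusted p = 0.196, 0.206 and 0.448), and Il10 of 0.01 (adjusted p = 0.989).

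Immediate early and heat shock genes, which dissociation of tissue can induce, leaned lower. Only 1 of 18 had a positive fold change, against 54.3% of all genes, and the median was -0.44, but 1 passed in edgeR, against 0.545% of all genes called lower, while DESeq2 called 5 of the 18 lower and voom 2. The gene called by edgeR was Dnajb1, a co-chaperone, at 76.9, 88.3 and 103 CPM in controls and 39.5, 54.3 and 78.4 CPM in anemia mice (log2 -0.68 ± 0.15 SE, adjusted p = 0.0368). Its groups overlapped in 1 anemia mouse, and its call held in 3 of the 12 fits with 1 mouse left out (adjusted p up to 0.105, without control 1, log2 -0.64). It was lost without TMM factors (0.0573), with the Y-linked covariate (0.0561), in the cells with fewer hepatocyte transcripts (0.0596) and after thinning (0.0868). Of 18 metallothionein and antioxidant genes 1 rose (median 0.14), against 0.714% of all genes called higher. It was Mt2, a metal-binding protein, at 2.57, 4.14 and 8.60 CPM in controls and 9.67, 16.6 and 26.1 CPM in anemia mice (log2 1.89 ± 0.30 SE, adjusted p = 0.00955). Mt2 also went from 3.22 to 12.97 CPM in B cells, with a difference in effect of -0.07 (adjusted p = 0.944). Of the 18 metallothionein and antioxidant genes DESeq2 called 2 higher and 1 lower, and voom called 3 higher. An unadjusted edgeR p under 0.05 was found for 11 of them, against 2274 of all 13024 genes. Of 9 glucocorticoid response genes 1 rose, Ddit4, which the hypoxia list also holds, against the same 0.714% of all genes, and the median was -0.04. DESeq2 called 2 of the 9 higher and voom 3, and 4 had an unadjusted edgeR p under 0.05. Of 18 cell cycle genes beyond Top2a and Mki67 none passed in edgeR, DESeq2 or voom, against 1.26% of all genes, and 1 had an unadjusted edgeR p under 0.05, though 17 had a positive fold change (median 0.36).

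Other genes were named for the size of their change. Ptgs2, the inducible cyclooxygenase (chr1:150100031-150108227, plus strand), was 1.73, 4.18 and 6.70 CPM in controls and 8.00, 13.6 and 70.4 CPM in anemia mice, the highest in anemia 2. The groups did not overlap (log2 2.68 ± 0.57 SE, adjusted p = 0.0352). Its call was lost without any 1 of the 6 controls or anemia 3 (adjusted p up to 0.0929, without control 6, log2 2.49). With the Y-linked covariate it was not called (0.0544). Without anemia 2 and anemia 3 together its log2 fold change was 1.37 (adjusted p = 0.0427), and in B cells it went from 1.32 to 10.7 CPM (difference -0.09, adjusted p = 0.958). Hpgds, the hematopoietic prostaglandin D synthase (chr6:65117293-65144908, minus strand), was 247, 271 and 289 CPM in controls and 82.2, 161 and 196 CPM in anemia mice, without overlap (log2 -0.84 ± 0.18 SE, adjusted p = 0.0391). Its call was lost without any 1 of the 6 controls, anemia 3 or anemia 5 (adjusted p up to 0.103, without control 1, log2 -0.82), and it was kept without anemia 2 and anemia 3 together (log2 -0.59, adjusted p = 0.00611). It was lost with the Y-linked covariate (0.0676), without TMM factors (0.0600) and in the cells with fewer hepatocyte transcripts (0.0642).

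Slpi, an inhibitor of neutrophil proteases, was 7.70, 17.1 and 32.0 CPM in controls and 34.9, 116 and 189 CPM in anemia mice (log2 2.58 ± 0.49 SE, adjusted p = 0.0220). Its groups did not overlap, and the call was lost without control 1 (adjusted p = 0.0752, log2 2.49), control 2, control 4 or control 5 and in the cells with fewer hepatocyte transcripts (0.0859, log2 2.11). Slpi also went from 19.2 to 35.8 CPM in B cells (difference 1.63, adjusted p = 0.2765). In C1q cells without Clec4f and Vsig4 it was higher and went from 187 to 478 CPM (difference 1.38, adjusted p = 0.452). Its level in resting Kupffer cells was 0.767 of that in all other barcodes. Among genes at least 3 times as high in resting Kupffer cells as in all other barcodes, the calls with the smallest p that were higher in anemia included Adamdec1, a metalloprotease of tissue macrophages (37.3, 58.2 and 79.0 CPM against 89.3, 96.7 and 114 CPM, log2 0.79, adjusted p = 0.0204), and Csf2rb, the shared beta chain of the GM-CSF and IL-5 receptors (151, 166 and 201 CPM against 208, 244 and 262 CPM, log2 0.47, adjusted p = 0.0329). Neither overlapped between the groups. Gpt2, a mitochondrial alanine transaminase (log2 0.83, adjusted p = 0.0212), and Sh3bgrl2 (log2 0.56, adjusted p = 0.0310) rose as well. Csf2rb has a near-identical neighbour in the mouse, so its counts are uncertain. The call was lost for Adamdec1 without control 1 (adjusted p = 0.0679) or control 6, and with 1 mouse left out it held in 9 of 12 fits for Gpt2 (adjusted p up to 0.0720, without control 1), in 6 for Csf2rb (up to 0.102, without control 1) and in 5 for Sh3bgrl2 (up to 0.0796, without control 4). In the cells with fewer hepatocyte transcripts Gpt2 (0.0842) and Csf2rb (0.0630) were not called, after thinning Gpt2 (0.144), Csf2rb (0.155) and Sh3bgrl2 (0.395) were not, with the Y-linked covariate Sh3bgrl2 (0.0678) was not, and without a filter Csf2rb (0.0572) was not.

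Of the genes that fell, Hcar2, the receptor for niacin and ketone bodies (chr5:123863570-123865499, minus strand), was 47.1, 65.6 and 80.1 CPM in controls and 17.3, 29.5 and 42.4 CPM in anemia mice (log2 -1.11 ± 0.20 SE, adjusted p = 0.0204). Plau, the urokinase plasminogen activator (chr14:20836660-20843385, plus strand), was 29.4, 34.0 and 55.8 CPM in controls and 14.0, 19.3 and 23.6 CPM in anemia mice (log2 -1.02 ± 0.19 SE, adjusted p = 0.0204). Neither overlapped between the groups. The call for Hcar2 was lost without control 1 (adjusted p = 0.0631, log2 -1.07) or control 3 and that for Plau without control 1 (adjusted p = 0.0531, log2 -0.88). After thinning neither was called (0.0537 and 0.188).

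Dhx40, an RNA helicase of the DEAH family (chr11:86768846-86807746, minus strand), was 366, 479 and 562 CPM in controls and 83.6, 214 and 308 CPM in anemia mice, without overlap (log2 -1.17 ± 0.24 SE, adjusted p = 0.0310). Nhej1, a factor of DNA end joining (chr1:74967139-75125200, minus strand), was 85.6, 120 and 161 CPM in controls and 26.3, 49.3 and 87.0 CPM in anemia mice, with overlap in 1 anemia mouse (log2 -1.20 ± 0.27 SE, adjusted p = 0.0460). Both were lowest in anemia 2, and both fell more than in B cells, where Dhx40 stood at 279 and 230 CPM (difference -0.96, adjusted p = 0.0374) and Nhej1 at 16.0 and 17.1 CPM (difference -1.31, adjusted p = 0.0122). With 1 mouse left out the call held in 4 of 12 fits for Dhx40 (adjusted p up to 0.0796, without control 4) and in 3 for Nhej1 (up to 0.120, without control 1), and without anemia 2 and anemia 3 it held for Dhx40 (log2 -0.96, adjusted p = 0.0115) and not for Nhej1 (log2 -0.94, adjusted p = 0.0602). With the Y-linked covariate neither was called (0.0581 and 0.0751). In the cells with fewer hepatocyte transcripts Dhx40 was not called (0.0631), and Nhej1 was lost in 3 other alternatives (0.0504 to 0.0584).

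Kptn, Necab2, Ccdc146, Mfsd11 and Tbc1d9 also fell, with log2 fold changes of -1.01, -1.43, -1.001, -0.70 and -0.54 and adjusted p-values of 0.0470, 0.0216, 0.0202, 0.0265 and 0.0460. Kptn belongs to a complex that restrains mTORC1, Necab2 binds calcium and Tbc1d9 belongs to a family of Rab regulators. With 1 mouse left out their calls held in 3, 7, 10, 6 and 2 of 12 fits, with adjusted p-values up to 0.120 for Kptn, 0.0629 for Necab2, 0.0752 for Mfsd11 and 0.118 for Tbc1d9, each without control 1, and up to 0.0586 for Ccdc146 without control 6. Kptn was not called without anemia 2 and anemia 3 (log2 -0.80, adjusted p = 0.0582). Junos, annotated as an antisense RNA beside Jun, also fell (log2 -1.16, adjusted p = 0.0391), and since the strand setting of the counting is not given in the sources used here its reads may include those of overlapping transcripts. Its call held in 5 of 12 fits (adjusted p up to 0.106, without control 1). With the Y-linked covariate Kptn (0.0764), Mfsd11 (0.0562) and Junos (0.0676) were not called. In the cells with fewer hepatocyte transcripts Kptn (0.0539), Ccdc146 (0.0580), Tbc1d9 (0.0596) and Junos (0.0580) were not. After thinning Ccdc146 (0.104), Necab2 (0.0868), Mfsd11 (0.0606) and Junos (0.366) were not, and without TMM factors Kptn (0.0588), Tbc1d9 (0.0619) and Junos (0.0533) were not. Kptn was also lost with stricter mitochondrial (0.0536) and globin limits (0.0528), and Tbc1d9 with the latter (0.0502).

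**Figure D5:**
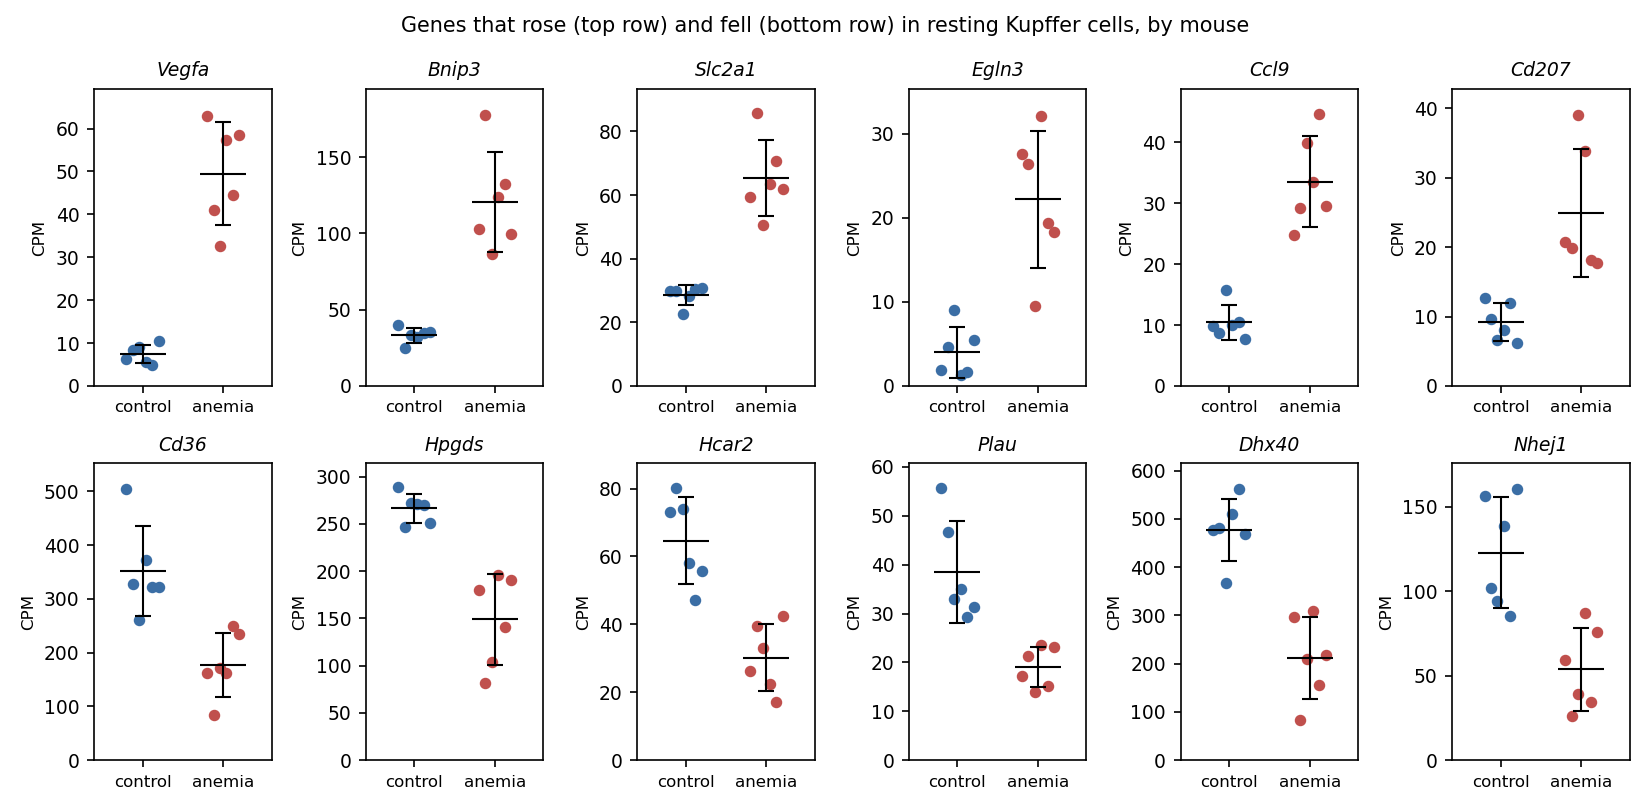
CPM in resting Kupffer cells of 6 genes that rose (top row) and 6 that fell (bottom row), with 1 point per mouse and the mean ± SD of 6 mice per group. In every panel but Nhej1 the 6 anemia mice lie on 1 side of the 6 controls; Vegfa stands at 4.85 to 10.4 CPM in controls and 32.5 to 63.0 CPM in anemia mice.

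Transcripts of other liver cells were present, with hepatocyte markers at the highest summed level. The summed level of 19 hepatocyte markers was 6560 ± 898 CPM (SD, n = 6) in controls and 4269 ± 2374 CPM (SD, n = 6) in anemia mice, with 1324 CPM in anemia 2 and 1371 CPM in anemia 3 and 4529 to 6604 CPM in the others (exact Mann-Whitney p = 0.0649, adjusted p = 0.0779). The difference was -2291 CPM over all mice and -831 CPM without anemia 2 and anemia 3 (adjusted p = 0.309, exact test). Alb was 746 CPM of all UMIs in resting Kupffer cells and 1163 in B cells. Of the 19 markers 1 rose and 1 fell in edgeR, against 0.714% of all genes called higher and 0.545% called lower. Only 3 of the 19 had a positive fold change, and the median log2 fold change was -0.62 against 0.03 over all genes. An unadjusted edgeR p under 0.05 was found for 11 of the 19, against 2274 of all 13024 genes. DESeq2 called 1 higher and 2 lower, and voom 1 higher and 1 lower. Apoc3, an apolipoprotein of the hepatocyte, rose from 32.4 to 107 CPM (log2 1.71, adjusted p = 0.0204) and stood at 45.8 and 147 CPM in B cells (difference 0.06, adjusted p = 0.903). Cyp2e1, a hepatocyte cytochrome, fell from 46.3 to 12.7 CPM (log2 -1.89, adjusted p = 0.0357) and stood at 71.6 and 13.9 CPM in B cells (difference 0.43, adjusted p = 0.415). With 1 mouse left out Apoc3 was called in 8 of 12 fits (adjusted p up to 0.0679, without control 1) and Cyp2e1 in 4 (up to 0.0992, without control 1). In the cells with fewer hepatocyte transcripts neither was called (0.0859 and 0.0631), and Apoc3 was not with the Y-linked covariate (0.0544).

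All 10 monocyte markers had a positive fold change and none passed in edgeR (median 0.81), where 4 had an unadjusted p under 0.05, or in DESeq2, while voom called 1 higher, with a summed level of 397 ± 141 CPM (SD, n = 6) in controls and 786 ± 569 CPM (SD, n = 6) in anemia mice. Ccr2 was 0.824 to 5.54 CPM in controls and 1.06 to 20.3 CPM in anemia mice. Their part in the gene results was not tested. The lists for other cells had no call in edgeR or voom, while DESeq2 called 1 erythroid marker higher and 1 B cell and 1 stellate marker lower. At an unadjusted edgeR p under 0.05 there were 2274 of all 13024 genes. Those lists had 0 except B cell (5 of 7 tested), erythroid (3 of 4), stellate (2 of 9) and endothelial (1 of 10). They had summed levels in controls and anemia mice of 342 to 1256 and 321 to 2134 CPM for 10 neutrophil markers, 123 to 226 and 60.6 to 152 CPM for 8 B cell markers, 33.8 to 78.7 and 18.9 to 95.4 CPM for 8 T and NK cell markers, 295 to 370 and 278 to 400 CPM for 10 endothelial markers, 270 to 1654 and 98.3 to 1348 CPM for 9 stellate markers, 23.5 to 40.4 and 24.0 to 37.7 CPM for 6 dendritic cell markers, 1.68 to 7.58 and 3.70 to 8.91 CPM for 4 platelet markers, and 16.0 to 30.6 and 29.6 to 46.4 CPM for 11 erythroid markers.

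The effect of anemia was then set against that in 2 related macrophage sets with the same test of the difference. Against 535 cycling Kupffer cells, chosen alike but with more than 1 UMI of Top2a and Mki67, 1 of 13024 genes differed (0.00768%), the predicted gene Gm43305, and 622 had an unadjusted p under 0.05. Against the 2265 C1q cells without Clec4f and Vsig4 UMIs, 3 genes differed (0.0230%), Dleu2, Gja1 and Gm17749, with 1435 at an unadjusted p under 0.05. Without anemia 2 and anemia 3 no gene passed in either comparison, with 649 and 1104 at an unadjusted p under 0.05, and anemia 2 alone held 1102 of the 2265 cells. These 4 genes were named after their values were seen. In the first comparison the count was 2 without control 2, control 5, control 6 or anemia 1 and 0 without anemia 2; in the second it was 16 without control 2, 12 without control 4, 11 without anemia 1, 10 without control 3, 1 without control 1, 2 without anemia 4, 1 without anemia 6 and 0 without control 6, anemia 3 or anemia 5. Against B cells 104 genes differed (0.799%), 66 with a higher and 38 with a lower effect in resting Kupffer cells. The count was 19 without control 1, 27 without control 2 and 46 without control 3. It was 29 without control 4, 30 without control 5 and 56 without control 6. Without anemia 3 it was 32 and without anemia 5 it was 40. B cells had no limit on Stab2 or Clec4g, and the endothelial gene Ptprb was 62.1 CPM of all UMIs there against 12.8 in resting Kupffer cells. Some of the 66 fell in B cells and were not called in resting Kupffer cells. Stab1 went from 30.5 to 12.3 CPM and Kdr from 64.4 to 28.2 CPM in B cells (adjusted edgeR p in resting Kupffer cells 0.867 and 0.513).

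Markers were also counted cell by cell. A Cd5l UMI was found in 87.8% ± 3.73 (SD, n = 6) of resting Kupffer cells in controls and 83.6% ± 4.95 (SD, n = 6) in anemia at 1000 UMIs per cell, against 1.67 and 1.59% of B cells, and in 94.0 and 91.8% without thinning. In all 12 mice the share of cells with a Cd5l, Marco or Slc40a1 UMI was higher among cells with a Timd4 UMI than among those without, on average 90.3 against 82.7% for Cd5l, 79.1 against 71.3% for Marco and 76.9 against 70.5% for Slc40a1. For Hmox1 (45.4 against 45.0%) and Spic (14.4 against 14.3%) it was higher in 6 of 12 mice. The other genes counted lay between, with Mrc1 higher in 11 of 12 mice (55.6 against 51.4%). Vcam1 was higher in 10 (50.4 against 47.5%) and Cd163 in 8 (7.79 against 6.45%).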

How the data were processed

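Livers of 12 mice were measured by droplet single-cell RNA sequencing, 1 library per mouse. The authors made the deposited UMI counts per gene and barcode with Cell Ranger 7.0.0 (per the file headers, build mm10 per the labels), after which no further normalization had been applied. The deposited tables hold 32285 genes. The kit version differs between the sources used here. Resting Kupffer cells and the gene lists were chosen with earlier results of these data known, so no list is independent evidence. Doublet callers were not run. The rule left out barcodes with any UMI of Stab2, Clec4g, Cd79a or Cd3e and barcodes at or above the globin limit. Barcodes with globin UMIs below that limit were kept. Other endothelial and lymphocyte markers were not part of the rule and were still detected in the chosen cells, at the levels given above. UMIs were summed per mouse. Genes averaging 5 or more UMIs in a mouse were fitted with edgeR 4.0.16 (TMM, quasi-likelihood, Benjamini-Hochberg threshold 0.05), without mitochondrial, ribosomal protein and rule genes. Differences between cell sets were interactions with the mouse as a block. Single values were compared with exact two-sided Mann-Whitney tests, adjusted over 6. P-values measure the spread between mice, and pups of a litter may share it.

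Named genes were a fixed panel of 12, up to 3 called genes per list and direction by p, the 8 largest changes per direction (mean of at least 20 CPM in the higher group), and the 8 smallest p per direction among genes at least 3 times as high as in all other barcodes, without predicted genes, Xist and Y-linked genes in the last 2 sets. Alternatives were DESeq2 1.42.0, limma 3.58.1 (voomWithQualityWeights), library sizes without TMM, no filter, a minimum mean of 50 UMIs, a replicate block, a Y-linked covariate, mitochondrial limits of 10 and 50%, stricter rules, the members with the lower hepatocyte marker share, thinning to 1000 UMIs, shared barcodes left out, and each mouse left out. The edgeR script was tested on simulated data. Gene coordinates are from the GENCODE annotation of GRCm38 and promoter windows from RefSeq. Aldoa is not analysed here.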

Additional observations from a re-analysis of the deposited data

Results flagged for a closer look

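In 6 of 102 groups checked, 1 mouse lay far from the other 5 of its group by Dixon's test, close to the share of about 1 in 20 that chance alone gives. Timd4 was 784.4 CPM in control 2 against 549.2 to 627.0 CPM in the other controls. In anemia 2, Slc40a1 was 1128 CPM against 1733 to 2077 CPM and Vcam1 was 496.6 CPM against 1080 to 1306 CPM in the other anemia mice. Control 3 had the lowest Slc2a1 of the controls, 22.46 CPM against 28.41 to 30.88 CPM, and the highest Ccl9, 15.77 CPM against 7.659 to 10.55 CPM. Apoc3 was 52.49 CPM in control 5 against 25.93 to 32.49 CPM in the other controls.

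Among the genes that the naming rule picked, the effect of anemia differed between resting Kupffer cells and B cells for 10 in the edgeR test of the difference. It was larger in resting Kupffer cells for Vegfa (difference of log2 fold changes 2.98), Egln3 (2.50), Ddit4 (1.75), Ccl9 (1.25), Bnip3 (1.07), Scd2 (0.99), Slc2a1 (0.85) and Fabp4 (0.69), and lower for Nhej1 (-1.31) and Dhx40 (-0.96). The report gives the further hypoxia list genes that differed.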

How the results depend on the processing

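With 1 mouse left out, the number of genes called ran from 37 to 244 (164 with all mice), of those with another effect than in B cells from 19 to 136, than in C1q cells without Kupffer markers from 0 to 16 and than in cycling Kupffer cells from 0 to 2. DESeq2 called 560 genes, members with the lower hepatocyte marker share gave 96, thinning to 1000 UMIs 59 and leaving out anemia 2 and anemia 3 together, chosen after seeing the data, 247. Of the 164 calls, DESeq2 kept 163 of the 163 it could test, and the last setting kept 126 of 162. That setting gave 0 genes against both macrophage sets, and a minimum mean of 50 UMIs gave 1 against the C1q cells without Kupffer markers, where the median difference over all genes was -0.0858 with and 0.104 without TMM. The cause of these shifts was not tested.

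Single values were adjusted over the 6 measures within each setting. With the replicate block the exact sign-flip p was 0.0313, the smallest it allows, and the adjusted p 0.0375 for every measure but median UMIs. The fall in share of all kept barcodes (-2.39 points) kept its direction in all settings and its side of the threshold in all but both mice left out (-2.05, adjusted p = 0.0571, exact test), and it was -4.21 with thinned barcodes. Among barcodes under the globin limit the difference passed with thinned barcodes (-3.23), the stricter rule (-1.82), the permutation test of means (-1.68, adjusted p = 0.0357) and the replicate block (-1.68), and ran from -2.01 to -1.39 with 1 mouse left out, where it passed without control 3 (-2.01) and without anemia 5 (-1.95). Without both mice it was -1.06 (adjusted p = 0.257, exact test). As a share of C1q cells it did not pass with both mice left out (-5.30), and ran from -21.4 to -9.80, or -20.5 to -9.80 where the call was lost. Genes at 1000 UMIs did not pass without both mice (-8.83) or without anemia 4 (-14.3; range -15.3 to -10.5). Hepatocyte marker CPM passed with the replicate block (-2291) and without control 2 (-2556) or anemia 6 (-2758; range -2758 to -1702), and was -831 without both mice (adjusted p = 0.309, exact test). Median UMIs turned direction under the stricter rule (825) and ran from -351 to 224 with 1 mouse left out, being higher in anemia by 45.4 to 224 where it turned, and it was -399.9 without both mice.

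Mice with the same number were not treated as pairs, because the correlations of their deviations ran from -0.0884 to 0.452. The replicate block called 191 genes and ended the calls of Ccl6, Csf2rb, Egln1 and Sh3bgrl2 among the genes named here.

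Directions turned among genes that did not pass: Timd4 with voom (-0.0709) and without both mice (-0.0916), Adgre1 likewise (-0.0626 and -0.16), Marco (-0.0628) and Cd163 (0.0597) without both mice, Vcam1 with the Y-linked covariate (-0.0339), and Spic with voom (-0.14), no TMM (-0.0432), no filter (-0.0027), a minimum of 50 (-0.0307), the replicate block (-0.0261), thinning (-0.0458) and without both mice (-0.22). With 1 mouse left out the ranges were -0.16 to 0.0023 for Cd5l, -0.0755 to 0.12 for Timd4 and -0.0790 to 0.0693 for Spic, from -0.0790 to -0.0004 where Spic turned. No called gene named here turned direction. With 1 mouse left out, 15 of 46 called genes named here kept their call each time, and 13 of the 46 did so in every alternative that tested them. The Y-linked covariate ended 14 of the 46 calls, the lower hepatocyte marker share 17 and thinning 16 of 45.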
